A study of Rattus norvegicus with 52 samples.

Results

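The 10 immediate early genes described here were followed through 48 RNA-seq libraries of sorted rat mammary cells: *Fos*, *Fosb*, *Jun*, *Junb*, *Jund*, *Egr1*, *Atf3*, *Ier2*, *Dusp1* and *Zfp36*. They were chosen by symbol, and all 10 were found among the 17356 genes counted in every library. All 10 passed the filter on low counts in each of the 21 comparisons below.

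Immediate early genes are transcribed within minutes of a stimulus, without new protein being made first. Fos and Jun proteins pair to form the transcription factor AP-1, Egr1 is a zinc finger factor that binds GC-rich sites, and others of the class, such as Dusp1 and Zfp36, feed back on the signal. In mammary epithelium they respond to growth factors and hormones. They are also known to rise while a tissue is cut up, digested with enzymes and sorted, and every library here came from glands that were dissociated, stained in the cold and sorted by FACS.

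Of the libraries, 16 came from female ACI rats of 9 weeks, 8 of them *Cdkn1b*+/+ (WT) and 8 *Cdkn1b*-/- (KO), with 2 libraries of each genotype for basal/myoepithelial cells (Cd24+ Cd29 high), mature luminal cells and luminal progenitors (LP) sorted either as Cd49b+ or as PNA+. Another 11 libraries of basal and luminal cells were labelled 4 weeks (3 WT basal, 3 WT luminal, 2 KO basal, 3 KO luminal) and 9 were labelled 6 weeks (3 WT basal, 2 WT luminal, 2 KO basal, 2 KO luminal). *Cdkn1b* encodes p27, an inhibitor of cyclin-dependent kinases. KO rats carried the em1 or the em4 deletion, which were made in Sprague-Dawley zygotes and crossed into ACI, in equal contribution, and WT rats were littermates from heterozygous crosses. By the study's methods, rats for sorting came from an early and a late backcross generation. The titles do not tell which, so the share of Sprague-Dawley background may differ between libraries. The last 12 libraries held basal and luminal cells of rats with the wild-type gene, given an implant that was empty (control) or held estradiol (E2): in each cell type 2 control and 2 E2 libraries of ACI rats, which are prone to mammary tumors under E2, and 1 control and 1 E2 library of BN rats, which resist them. The titles of the luminal libraries of this experiment hold CD49b_PNA_LUM, and do not say how these cells were gated. Mature luminal cells of 9 weeks were sorted as Cd49b- PNA-, so luminal libraries of different sets may not be the same population. The labels of the E2 experiment give no age. By the study's methods the implants were placed at 9 weeks of age, and treatment lasted 3 weeks. Nothing in the labels says that 9-week libraries of a group came from separate rats, so that p-values measure the spread between libraries, and the codes of the BN libraries hold 2 numbers each, which may stand for pooled rats.

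The 9-week libraries held 21545344 to 33859550 gene counts, the 4-week libraries 14674040 to 23045345, the 6-week libraries 7985619 to 16390460, and those of the E2 experiment 13659389 to 25280421. The summed level of 7 basal markers was 2056 to 26658 CPM (counts scaled to library size) in basal libraries and 102 to 2725 CPM in the others, and the summed level of 10 luminal markers was 29.4 to 5917 CPM in basal and 5542 to 20869 CPM in the other libraries. Only 1 basal library had less of the basal markers than a luminal one: the basal library of E2-treated ACI replicate 1, in which 7716 genes were detected, lay below KO Cd49b+ replicate 2. *Cdkn1b* itself was at 6.1 to 15.7 CPM in WT and 1.8 to 4.6 CPM in KO libraries of 9 weeks, but at 6 weeks the library labelled WT basal replicate 3 had 3.3 CPM and the one labelled KO luminal replicate 2 had 38.0 CPM, so that counts of the gene do not separate the labels there. At 4 weeks 1 KO luminal library, at 17.4 CPM, lay above 2 of the 3 WT luminal libraries. The library labelled KO luminal replicate 2 of 6 weeks also held 7006 CPM of adipocyte markers, against 128 CPM in the other one.

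Promoters of 7 of the 10 genes could be matched to RefSeq sequences of the GRCr8 assembly, each 250 bases before to 50 bases after the start, while *Fos*, *Jun* and *Atf3* had no entry. The 4 promoters printed here hold the letters of known response elements, in capitals. These are TGACGTCA, the cAMP response element that CREB and ATF factors read, GCGNGGGCG, the Egr element, and the CArG box, which serum response factor reads. *Jund* (chr16:18769722-18770021, minus strand), the gene with the widest range of levels at 9 weeks, *Ier2* (chr19:40399123-40399422, plus strand) and *Dusp1* (chr10:17184603-17184902, plus strand) hold 1 TGACGTCA each, *Jund* holds 3 Egr elements, and *Zfp36* (chr1:92799059-92799358, minus strand) holds 1 CArG box and 1 Egr element.
Jund: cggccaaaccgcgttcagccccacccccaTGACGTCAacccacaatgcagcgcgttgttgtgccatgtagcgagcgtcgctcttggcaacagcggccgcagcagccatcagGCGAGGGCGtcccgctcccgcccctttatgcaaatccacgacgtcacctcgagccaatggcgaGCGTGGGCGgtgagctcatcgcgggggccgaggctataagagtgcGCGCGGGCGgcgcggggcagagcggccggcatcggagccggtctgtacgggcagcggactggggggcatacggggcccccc
Ier2: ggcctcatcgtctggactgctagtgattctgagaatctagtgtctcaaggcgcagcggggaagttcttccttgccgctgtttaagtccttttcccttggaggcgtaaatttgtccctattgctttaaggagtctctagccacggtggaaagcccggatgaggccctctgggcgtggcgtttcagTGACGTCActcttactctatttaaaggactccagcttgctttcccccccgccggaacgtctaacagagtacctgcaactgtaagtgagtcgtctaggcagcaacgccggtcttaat
Dusp1: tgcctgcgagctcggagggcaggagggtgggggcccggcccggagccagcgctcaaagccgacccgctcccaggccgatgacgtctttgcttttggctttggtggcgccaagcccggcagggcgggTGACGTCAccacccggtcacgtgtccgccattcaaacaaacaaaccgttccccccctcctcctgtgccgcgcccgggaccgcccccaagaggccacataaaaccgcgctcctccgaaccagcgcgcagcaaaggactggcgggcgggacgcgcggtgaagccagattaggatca
Zfp36: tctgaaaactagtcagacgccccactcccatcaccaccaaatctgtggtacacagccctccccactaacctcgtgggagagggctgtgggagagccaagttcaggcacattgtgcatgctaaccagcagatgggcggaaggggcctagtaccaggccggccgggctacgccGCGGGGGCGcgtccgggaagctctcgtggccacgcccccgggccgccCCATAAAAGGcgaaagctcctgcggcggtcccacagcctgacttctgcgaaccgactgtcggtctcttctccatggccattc
Over both strands, TGACGTCA was in 3 of the 7 promoters and in 1.83% of all 33469 promoters of this length, the CArG box was in 2 of 7 (*Egr1* and *Zfp36*) and in 1.64%, and GCGNGGGCG was in 2 of 7 and in 4.98%. The AP-1 site TGANTCA was in 0 of the 7 windows and in 7.33% of all promoters. These are matches of letters in a short window and describe nothing about binding in the cells.

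The 10 genes together took a large and uneven share of the counts. The share was 1.71% to 4.37% at 9 weeks, 2.63% to 4.64% at 4 weeks, 0.615% to 2.29% at 6 weeks and 2.67% to 13.3% in the E2 experiment, where the luminal cells of control rats held the highest values (10.9% and 12.6% in ACI, 13.3% in BN). Age goes with the set of libraries, so that a difference between ages and one between sets cannot be told apart. In sorted bulk cells, fewer cells that express a gene and less RNA per cell cannot be told apart either.

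**Figure D1:**
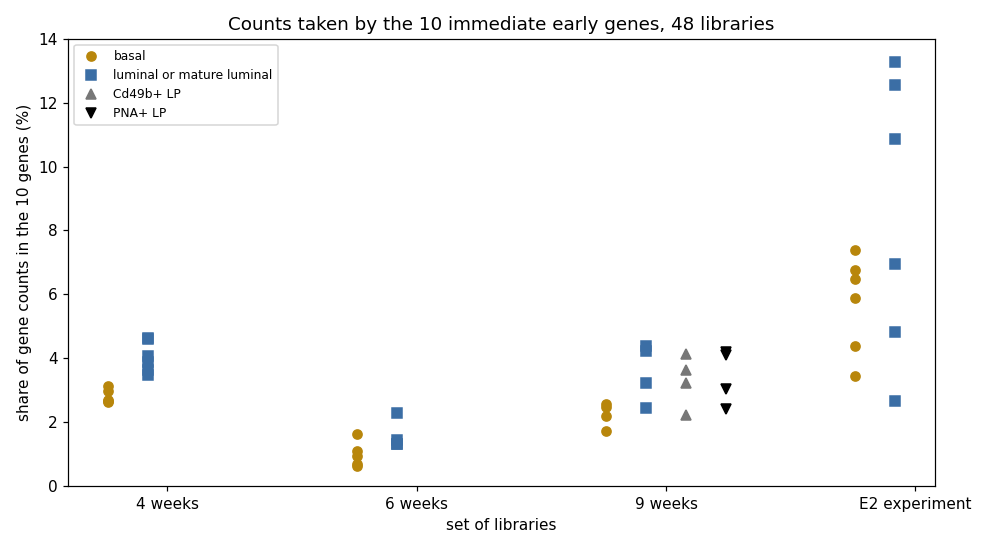
Share of all gene counts (%) taken by the 10 immediate early genes, 1 point per library, by set of libraries and sorted population. Shares were lowest at 6 weeks (0.615% to 2.29%) and highest in luminal cells of control rats in the E2 experiment (10.9% to 13.3%).

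Basal and luminal cells were compared first, in each of the 4 sets. At 9 weeks *Jun*, *Junb*, *Atf3* and *Zfp36* were lower in basal than in mature luminal cells. *Jun*, the main partner of Fos, was at 3314 and 3867 CPM in WT and 3769 and 3594 CPM in KO basal libraries of 9 weeks, against 11293 and 12330.0 CPM in WT and 10608 and 7312 CPM in KO mature luminal libraries. The 4 basal libraries thus lay below all 4 mature luminal ones. The log2 fold change, basal over mature luminal, was -1.50 ± 0.23 (SE, n = 4 and 4 libraries, edgeR's quasi-likelihood test and Benjamini-Hochberg adjustment, adjusted p = 0.00042).

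*Jund*, a Jun protein that is usually made in resting cells too, was at 1906 and 1691 CPM in WT and 404 and 3148 CPM in KO basal libraries, and at 7588 and 6607 CPM in WT and 1368 and 6259.8 CPM in KO mature luminal libraries. The groups overlapped through 1 low KO mature luminal library, and the log2 difference of -1.54 ± 0.74 did not pass (edgeR's quasi-likelihood test and Benjamini-Hochberg adjustment, adjusted p = 0.13). Libraries of the same genotype and number deviated together at 9 weeks (r above 0.1 in 12 of 12 distinct pairs of populations), and with genotype and number as a block the difference was -1.66 ± 0.18 (edgeR, adjusted p = 3.36e-06). *Junb* was lower in basal cells by 0.68 ± 0.23 on the log2 scale (edgeR quasi-likelihood, adjusted p = 0.038). Its call was lost without the filter on low counts (edgeR adjusted p = 0.071) and on leaving out any 1 of 6 of the 8 libraries, all but replicate 2 of KO and of WT basal cells (edgeR adjusted p = 0.054 to 0.16).

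Outside the Fos and Jun families, *Atf3*, a stress-induced factor of the ATF/CREB group, was at 1138 and 1322 CPM in WT and 729 and 1348 CPM in KO basal libraries, against 3300.0 and 3104 CPM in WT and 1415 and 2358 CPM in KO mature luminal libraries. No basal library reached the mature luminal ones, and the log2 fold change was -1.12 ± 0.25 (edgeR quasi-likelihood, adjusted p = 0.0049). *Zfp36*, whose protein binds AU-rich mRNAs and speeds their decay, was lower in basal cells as well, with a log2 fold change of -1.22 ± 0.27 (edgeR quasi-likelihood, adjusted p = 0.0040). The libraries of 3 genes did not overlap, against 32.2% of all genes. Thus 4 of the 10 genes fell in basal cells at 9 weeks and 0 rose, where 34.2% of the 12809 genes tested passed in either direction and 15.5% were lower. With the block *Jund* was the fifth, and 51.7% of genes passed. *Fos*, *Fosb*, *Egr1*, *Ier2* and *Dusp1* had log2 values between -0.40 and 0.16, with intervals that reach 0.

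**Figure D2:**
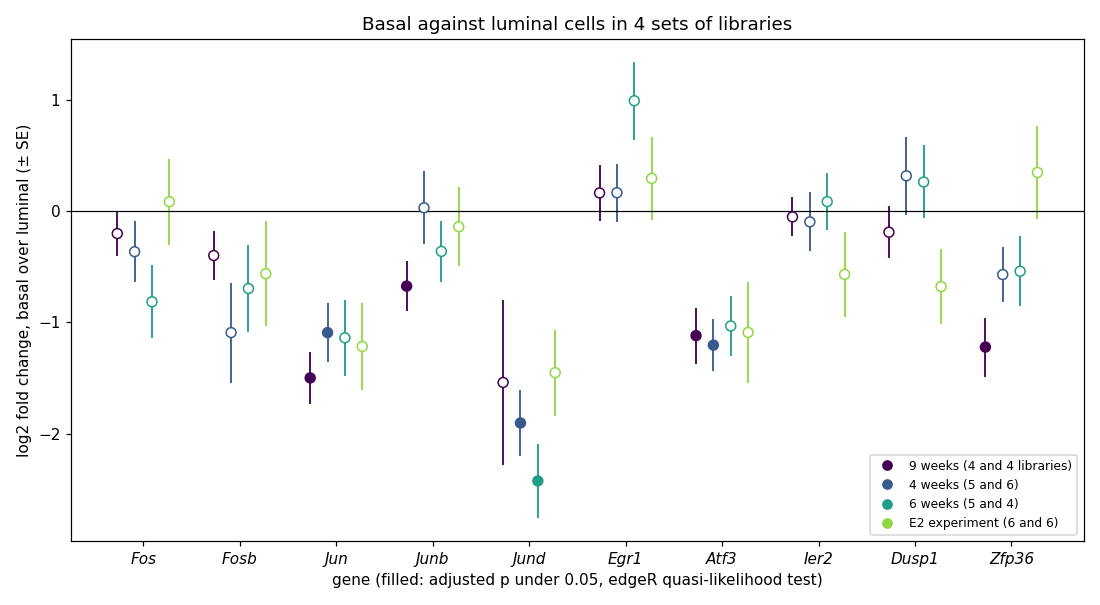
Log2 fold change, basal over luminal, with its SE for each of the 10 genes in 4 sets of libraries. Filled points passed edgeR's quasi-likelihood test at an adjusted p under 0.05. *Jun*, *Jund* and *Atf3* sit below 0 in all 4 sets, between -2.43 and -1.03, and *Egr1* sits above 0 in all 4.

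The younger rats gave the same order for *Jun*, *Jund* and *Atf3*. At 4 weeks *Jund* was at 1272, 1871 and 1719.5 CPM in WT and 2540.4 and 1168 CPM in KO basal libraries, and at 6354, 4975 and 5755 CPM in WT and 6840.0, 9905 and 5471 CPM in KO luminal libraries. The ranges stand well apart, and the log2 fold change was -1.91 ± 0.29 (n = 5 and 6 libraries, edgeR quasi-likelihood, adjusted p = 0.00021). *Atf3* (-1.21 ± 0.23, adjusted p = 0.0011) and *Jun* (-1.09 ± 0.26, adjusted p = 0.0053) also fell by edgeR's quasi-likelihood test, so that 3 of 10 genes fell and 0 rose where 35.1% of 12082 genes passed and 14.8% were lower. The libraries of these 3 did not overlap, against 25.8% of all genes. With the shared code of the titles as a block, *Zfp36* joined them (-0.55 ± 0.18, edgeR adjusted p = 0.026).

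At 6 weeks *Jund* was at 401, 328 and 167 CPM in WT and 778 and 894 CPM in KO basal libraries, and at 2221 and 2340.0 CPM in WT and 3689 and 2639 CPM in KO luminal libraries. It was the only one of the 10 to pass (log2 fold change -2.43 ± 0.33, n = 5 and 4, edgeR quasi-likelihood, adjusted p = 0.0042), where 5.65% of 11921 genes passed and 2.16% were lower. The libraries of *Jund*, *Jun* and *Atf3* did not overlap, against 11% of all genes. Leaving out either KO luminal library raised the count to 2. *Atf3* (-1.03 ± 0.27) and *Jun* (-1.14 ± 0.34) had like values that did not pass, and *Egr1* had 0.99 ± 0.35 (edgeR quasi-likelihood, adjusted p = 0.057, 0.090 and 0.14).

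In the E2 experiment 0 of the 10 genes passed (edgeR's quasi-likelihood test, 3 at an unadjusted p under 0.05, against 16% of all genes, and 2 with DESeq2), where 1.66% of 13335 genes did. *Jund* had a log2 fold change of -1.45 ± 0.39, *Jun* of -1.22 ± 0.39 and *Atf3* of -1.09 ± 0.46 (n = 6 and 6). Without the luminal library of E2-treated ACI replicate 1 the count was 2, and without both libraries of that code it was 1. Basal and luminal libraries that share a code or, at 9 weeks, a genotype and number formed 19 pairs, and in these *Jun* was lower in the basal library in 19, *Jund* and *Atf3* in 18 each, *Fosb* in 17, *Junb* and *Zfp36* in 15 each, *Fos* in 14, *Ier2* in 12, and *Egr1* and *Dusp1* in 9 each. The exception for *Jund* and for *Atf3* was the same pair, E2-treated ACI replicate 1, the one with the low basal markers.

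In LP, 3 of the 10 genes were higher than in basal cells, while none passed against mature luminal cells. *Jun* was at 8414, 7804, 8297 and 9329.8 CPM in WT and 8213, 5702, 9393 and 7681.5 CPM in KO LP libraries, above every basal library, with a log2 fold change of 1.15 ± 0.21 over basal cells (n = 8 and 4, edgeR quasi-likelihood, adjusted p = 0.00085). *Zfp36* (1.01 ± 0.24, adjusted p = 0.0046) and *Atf3* (0.82 ± 0.22, adjusted p = 0.011) were higher in LP too by the same edgeR test, so that 3 rose and 0 fell where 46.9% of genes passed and 20.9% were higher. The libraries of 2 (*Jun* and *Zfp36*) did not overlap, against 27.9% of all genes. With the block for genotype and number, 6 rose (*Jun*, *Junb*, *Jund*, *Atf3*, *Dusp1* and *Zfp36*) and *Egr1* fell by 0.43 ± 0.11 on the log2 scale (edgeR, adjusted p = 0.0038), where 61.8% of genes passed.

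Against mature luminal cells, 0 of 10 genes passed in LP (edgeR's quasi-likelihood test, 1, *Fosb*, at an unadjusted p under 0.05, against 34.2% of all genes, and 1 with DESeq2), where 19.7% of genes passed, and the log2 values ran from -0.46 to 0.22. With the block, *Jund* (-0.51 ± 0.15), *Fosb* (-0.44 ± 0.15) and *Jun* (-0.35 ± 0.12) were lower in LP (edgeR, adjusted p = 0.013, 0.031 and 0.035), where 43.4% passed. Between PNA+ and Cd49b+ LP, 0 of 10 passed (edgeR quasi-likelihood, 0 at an unadjusted p under 0.05 and 0 with DESeq2), where 0% of genes did. All 10 log2 values were above 0, from 0.08 to 0.26, and the 95% interval of each held 0.

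In a list of 40 further immediate early genes, 15 were higher and 7 lower in basal than in mature luminal cells at 9 weeks by edgeR's quasi-likelihood test, where 18.7% of all genes were higher and 15.5% lower, with a median log2 of 0.38 against -0.54 for the 10 genes and -0.04 for all genes. *Egr3* (3.27 ± 0.42) and *Egr2* (3.01 ± 0.58), close relatives of *Egr1*, and *Arc*, best known from neurons (3.72 ± 0.53), were higher in basal cells, and *Klf6* (-1.70 ± 0.25), a zinc finger factor, and *Ier5* (-1.99 ± 0.32), a relative of *Ier2*, were lower (edgeR, adjusted p = 0.00012, 0.0019, 0.00025, 0.00034 and 0.00057). At 4 weeks 17 of the 40 were higher and 5 lower, where 20.3% and 14.8% of all genes were. At 6 weeks 7 were higher and 0 lower (3.49% and 2.16% of all genes), and in the E2 experiment 3 were higher and 1 lower (0.952% and 0.705%). No test set the list against the 10 genes.

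The second comparison was between genotypes. In LP of 9 weeks, *Fosb*, a Fos protein that also exists in a stable short form, was at 1488 and 858 CPM (Cd49b+) and 1399.9 and 1071 CPM (PNA+) in WT, and at 714 and 622 CPM (Cd49b+) and 783 and 636 CPM (PNA+) in KO libraries. The lowest WT value lay above the highest KO value. It was the 1 gene of the 10 to fall, with a log2 fold change, KO over WT, of -0.81 ± 0.20 (n = 4 and 4, edgeR quasi-likelihood, adjusted p = 0.044), and 0 rose, where 3.4% of 12809 genes passed and 1.29% were lower. Leaving out any 1 of 6 of the 8 libraries ended the call (all but replicate 2 of KO and of WT Cd49b+), as did the PNA+ or the Cd49b+ libraries alone (-0.80 and -0.81, edgeR adjusted p = 0.31 and 1). The PNA+ and Cd49b+ libraries of 1 genotype and number are not independent samples, since they deviated together (r = 0.61 in KO and 0.77 in WT). With their counts summed, which leaves n = 2 and 2, *Fosb* had -0.83 and did not pass (edgeR adjusted p = 0.62), and 0 of the 10 genes were called.

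*Fos* was at 6619, 5698, 6985 and 6688 CPM in WT and 3882, 4335, 4241 and 4353 CPM in KO LP libraries, again without overlap, at a log2 fold change of -0.63 ± 0.18 (edgeR quasi-likelihood, adjusted p = 0.083). With DESeq2 its adjusted p was 0.00027, in a fit that likewise takes the PNA+ and Cd49b+ libraries as independent, which they are not. *Atf3* was the third gene without overlap, at 2523, 2182, 2779 and 2373 CPM in WT and 1239.8, 1638, 1645 and 1980.5 CPM in KO (-0.60 ± 0.24, edgeR quasi-likelihood, adjusted p = 0.19). Among all genes 13.2% had groups without overlap. The other 7 had log2 values from -0.71 (*Jund*) to 0.36 (*Junb*), and 8 of 10 were lower in KO, with a median of -0.29 against 0.03 for all genes.

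**Figure D3:**
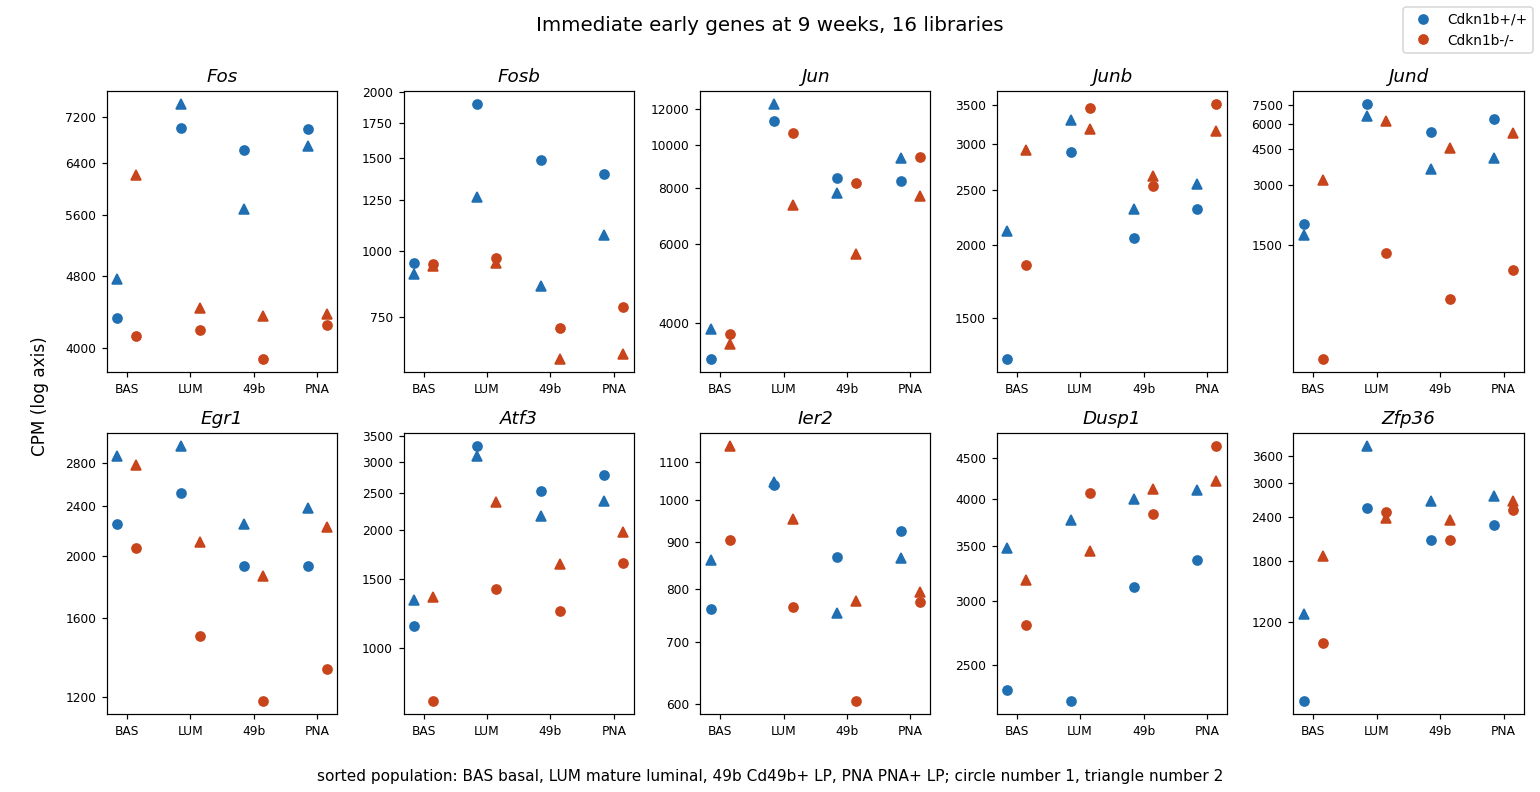
CPM (log axis) of the 10 genes in the 16 libraries of 9 weeks, by sorted population. Blue marks *Cdkn1b*+/+ and orange *Cdkn1b*-/-, and circles and triangles stand for numbers 1 and 2 of the titles. *Fos*, *Fosb* and *Atf3* lie lower in KO than in WT LP and mature luminal libraries, and *Jund* is low in all 4 KO libraries of number 1 (404 to 1368 CPM).

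Mature luminal cells had like values, but these libraries are not independent of the LP libraries. Those of the same genotype and number deviated together (r from 0.35 to 0.61). *Fos* was at 6995 and 7441 CPM in WT and 4183 and 4422 CPM in KO mature luminal libraries, a log2 fold change of -0.75 ± 0.26 (n = 2 and 2). *Fosb* had -0.73 ± 0.28 and *Atf3* -0.76 ± 0.33. *Jund* had the lowest log2 value of the 10 (-0.90), with KO libraries far apart. It was at 7588 and 6607 CPM in WT and 1368 and 6259.8 CPM in KO mature luminal libraries. None of the 10 passed edgeR's quasi-likelihood test (0 called, 3 at an unadjusted p under 0.05, against 7.15% of all genes, and 1 with DESeq2), where 0.133% of genes did. Of the 10, 8 were lower, and the libraries of 8 did not overlap, against 29.6% of all genes.

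In basal cells *Fos* was at 4313 and 4759 CPM in WT and 4121 and 6207 CPM in KO libraries, which overlap. The log2 values of the 10 genes ran from -0.24 to 0.56 there, and 0 passed (edgeR quasi-likelihood, 0 at an unadjusted p under 0.05, 0 with DESeq2), where 0.0546% of genes did. Only *Ier2* had groups without overlap, against 37% of all genes. The difference of the genotype effect between LP and basal cells was -0.82 ± 0.32 for *Fos* and -0.83 ± 0.35 for *Fosb*, and neither passed over all genes (edgeR's quasi-likelihood test of the interaction, adjusted p = 0.64 and 0.66). The difference between LP and mature luminal cells gave 0 members at an unadjusted p under 0.05.

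Beside these values stand others that moved with genotype. The summed level of 18 heat shock genes was 25911 to 36885 CPM in the 6 WT LP and mature luminal libraries and 11284 to 22127 CPM in the 6 KO ones, and in basal libraries 14396 and 15487 CPM in WT against 11282 and 16303 CPM in KO. In LP, 3 of the 18 fell by edgeR's test, with a median log2 of -0.64 over the list. Of the 40 further immediate early genes 3 fell and 0 rose in LP, where 1.29% of all genes were lower and 2.12% higher. The 3 were *Nr4a3*, an orphan nuclear receptor (-1.88 ± 0.33), *Klf2*, a Krüppel-like factor (-1.09 ± 0.20), and *Btg2*, an antiproliferative gene (-0.94 ± 0.22, edgeR, adjusted p = 0.0087, 0.0100 and 0.035). In LP libraries 6 endothelial markers summed to 306 to 600 CPM in WT and 80.1 to 694 CPM in KO, with a median log2 of -0.66. Fibroblast markers summed to 586 to 1532 CPM in WT and 168 to 1096 CPM in KO, with a median of -1.02. None of these passed edgeR's test. Medians of myeloid, lymphoid and adipocyte markers were -0.16, 0.97 and 1.64, with 1 adipocyte marker called higher. The part of tissue handling or of other cell types in the levels of these genes was not tested.

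*Jund* varied more between the KO libraries of a population than between the WT ones. Number 2 had 7.79 times the CPM of number 1 in KO basal cells, 5.60 times in Cd49b+ LP, 4.81 times in PNA+ LP and 4.58 times in mature luminal cells, while in WT the ratio lay between 0.639 and 0.887. The low libraries were the same number in all 4 populations. Over the 16 libraries the highest *Jund* level was 18.8 times the lowest, while for the other 9 genes this ratio lay between 1.90 and 5.41.

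In the libraries labelled 4 weeks no genotype difference passed, in a design that in simulated data found 28.5% of genes changed by a log2 of 2 in basal and 45.5% in luminal cells. By edgeR's quasi-likelihood test 0 of the 10 genes passed in basal cells (0 at an unadjusted p under 0.05, 0 with DESeq2), where 0% of 12082 genes did, and 0 in luminal cells (0 and 0), where 0% did. *Egr1* was the 1 gene without overlap in luminal cells, at 2281, 2686 and 2186 CPM in WT and 1426, 1525 and 1751 CPM in KO (log2 fold change -0.61 ± 0.35, n = 3 and 3), against 12.1% of all genes. *Junb* and *Dusp1*, the phosphatase that switches off MAP kinases, spread widely within groups, and *Dusp1* was at 2732, 5639 and 1973 CPM in the 3 KO luminal libraries.

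At 6 weeks 10 of the 10 log2 values were above 0 in basal and 8 in luminal cells, KO over WT, but no gene of the genome passed edgeR's quasi-likelihood test in either cell type. *Fos* was at 779, 499 and 859.5 CPM in WT and 1705 and 3005 CPM in KO basal libraries, a log2 fold change of 1.73 ± 0.44 (n = 2 and 3, edgeR, adjusted p = 0.38). All 10 were above 0 in basal cells, with a median of 0.74 against 0.08 for all genes, 3 had an unadjusted p under 0.05 (*Fos*, *Fosb* and *Jund*), against 8.99% of all genes, and the libraries of 6 did not overlap, against 40.9% of all genes. In edgeR 0 were called where 0% were, and with DESeq2 2 were. Without KO basal replicate 2 the median was 0.52, and 3 genes were below 0.

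In luminal cells of 6 weeks *Egr1* was at 138 and 332 CPM in WT and 1063 and 955 CPM in KO libraries, and *Fosb* at 113 and 251 CPM in WT and 518 and 985 CPM in KO. Their log2 fold changes were 2.10 ± 0.53 and 2.05 ± 0.60 (edgeR quasi-likelihood, adjusted p = 0.15 and 0.18), and both passed with DESeq2 (adjusted p = 0.0026 and 0.022), so that 0 of the 10 were called where 0% of genes were, 2 had an unadjusted p under 0.05, against 16.4% of all genes, and 2 passed with DESeq2. Of the 10 log2 values 8 were above 0, with a median of 0.45 against -0.01 for all genes, while *Atf3* (-0.49 ± 0.40) and *Jun* (-0.13 ± 0.50) were below. The libraries of 7 did not overlap, against 49.7%, and among these *Atf3* was the one with lower values in KO, at 1595 and 1169 CPM against 1644 and 2227 CPM in WT. Without KO luminal replicate 1, edgeR called 2. The other KO luminal library, the one with 7006 CPM of adipocyte markers, was the higher for *Fosb* and the lower for *Egr1*. Endothelial, myeloid and fibroblast markers were higher in both KO luminal libraries than in both WT ones, while for lymphoid and basal markers the ranges overlapped. The summed level of 6 endothelial markers was 147 and 464 CPM in KO against 0.303 and 8.9 CPM in WT, that of 8 myeloid markers 823 and 1359 CPM against 148 and 231 CPM, and that of 6 fibroblast markers 117 and 3076 CPM against 16.6 and 33.5 CPM, with median log2 differences of 7.71, 4.55 and 7.01 over the markers tested, and 0 single markers passed edgeR's test. In basal cells fibroblast markers were at 2331 and 3288 CPM in KO and 67.1 to 567 CPM in WT. Their part in the result was not tested.

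Ages were compared in WT rats, in a fit of all 36 libraries of the 3 ages. *Fos* was at 9167, 5721 and 7609 CPM in basal libraries of 4 weeks and at 691, 463 and 769.7 CPM in those of 6 weeks. No library of one age came near the other, and the log2 fold change was -3.55 ± 0.35 (n = 3 and 3, edgeR quasi-likelihood, adjusted p = 5.02e-07). In luminal cells it went from 12089, 7676 and 8488 CPM at 4 weeks to 1787 and 1304 CPM at 6 weeks, -2.61 ± 0.40 (n = 2 and 3, edgeR, adjusted p = 0.00033).

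*Egr1* showed the largest fall in luminal cells, from 2109.6, 2441 and 2007 CPM to 123 and 312 CPM (-3.33 ± 0.46, edgeR quasi-likelihood, adjusted p = 0.00016), and in basal cells it went from 2442, 1937 and 1946 CPM to 841, 639.8 and 480.4 CPM (-1.69 ± 0.36, adjusted p = 0.0021 by the same edgeR test). Of the feedback genes, *Dusp1* fell by 1.81 ± 0.40 in basal and 1.51 ± 0.46 in luminal cells and *Zfp36* by 1.34 ± 0.34 and 1.59 ± 0.39 on the log2 scale. *Jund* fell by 2.46 ± 0.65 in basal cells, and its value of -1.32 ± 0.73 in luminal cells did not pass (edgeR quasi-likelihood, adjusted p = 0.25).

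In all, 9 of the 10 genes fell in basal cells, *Ier2* alone missing the threshold (-0.76 ± 0.28, edgeR quasi-likelihood, adjusted p = 0.052), where 21.7% of 13392 genes passed and 12.3% were lower. In luminal cells 6 fell (*Fos*, *Fosb*, *Egr1*, *Ier2*, *Dusp1* and *Zfp36*), where 9.92% passed and 5.81% were lower. All 10 were lower without overlap in both cell types, against 34.9% and 48.7% of all genes. The median log2 was -1.65 and -1.41, that of the 40 further immediate early genes -0.75 and -0.62, and that of all genes -0.05 and -0.06. The luminal count fell to 2 without WT luminal replicate 1 of 6 weeks, to 3 without WT luminal replicate 1 of 4 weeks and to 3 when the 9-week libraries were left out of the fit.

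**Figure D4:**
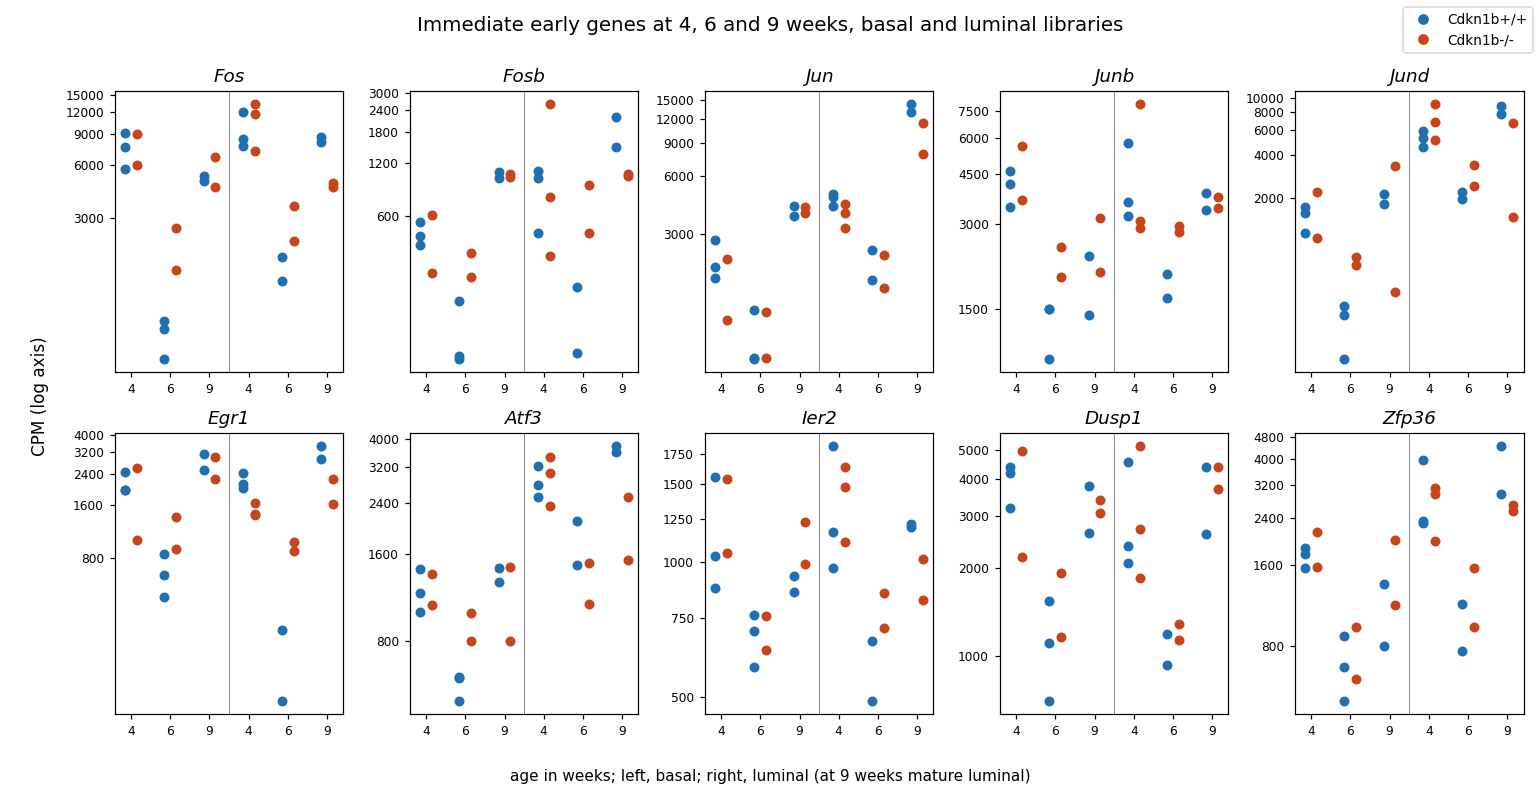
CPM (log axis) of the 10 genes in basal (left of the line) and luminal (right) libraries of 4, 6 and 9 weeks, scaled together. Blue marks *Cdkn1b*+/+ and orange *Cdkn1b*-/-. The 6-week WT libraries lie below the 4-week WT libraries for all 10 genes, and *Fos* in basal cells goes from 5721 to 9167 CPM down to 463 to 769.7 CPM.

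Between the KO groups of the same ages all 10 log2 values were below 0 as well, with medians of -0.98 in basal and -1.03 in luminal cells. Of them 0 passed in basal cells, where 0% of genes did, and 2 in luminal cells, *Fos* (-1.92 ± 0.38) and *Atf3* (-1.21 ± 0.33, edgeR quasi-likelihood, adjusted p = 0.0058 and 0.044), where 2.4% did. Whether the change with age differs between genotypes was not tested. Other values moved with age as well. Reads not counted to a gene made up 54.9% to 77.0% of the 6-week and 49.7% to 62.0% of the 4-week libraries. These include reads aligned to more than 1 place, which made up 34.8% to 57.0% and 37.8% to 48.4% of the libraries. In WT basal cells 4 of 7 basal markers and 3 of 5 measured fibroblast markers were lower at 6 weeks by edgeR's test, while of 8 myeloid markers 3 were higher and 1 lower. In WT luminal cells the summed level of myeloid markers was 148 and 231 CPM at 6 weeks against 669 to 878 CPM at 4 weeks, and that of fibroblast markers 16.6 and 33.5 CPM against 80.2 to 427 CPM, each on the scale of its own age. Of these lists 1 myeloid and 0 fibroblast markers were lower by edgeR's test. Their part in the age difference was not tested.

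The fall was not shared by every gene of the class. *Fosl1*, which encodes another Fos protein, was higher at 6 than at 4 weeks in basal (1.61 ± 0.43) and in luminal cells (2.03 ± 0.47, edgeR quasi-likelihood, adjusted p = 0.0100 and 0.0080). In 22 measured regulators of AP-1 and Egr genes the median log2 was 0.03 in basal and 0.08 in luminal cells, with 1 up and 2 down in basal and 0 called in luminal cells. Heat shock genes went the other way in basal cells, where 4 of 18 rose and 1 fell. Of all genes 9.39% rose and 12.3% fell in basal cells, and 4.11% and 5.81% in luminal cells.

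WT basal cells of 9 weeks were also set against those of 4 weeks. By edgeR's quasi-likelihood test 0 of the 10 genes passed, where 2.79% of genes did (2 at an unadjusted p under 0.05, against 18.2% of all genes, and 1, *Junb*, with DESeq2). The libraries of 7 did not overlap, against 45.7% of all genes. *Jun* was at 1771, 2014 and 2776 CPM at 4 weeks and 3729 and 4195 CPM at 9 weeks, and *Junb* went the other way, from 4154, 4582 and 3439 CPM to 1428 and 2299 CPM (log2 fold changes 0.86 ± 0.36 and -1.12 ± 0.40, n = 2 and 3).

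E2 was compared with the empty implant within each cell type, with strain as a term. In luminal cells *Fos* was at 29084 and 21578.5 CPM in ACI controls and 31608 CPM in the BN control, and at 3132 and 10658 CPM in E2-treated ACI and 6881 CPM in E2-treated BN rats. Every E2 library lay below every control, with a log2 fold change of -1.98 ± 0.77 (n = 3 and 3). *Fosb* had -2.33 ± 0.82, *Ier2* -1.65 ± 0.56 and *Zfp36* -1.62 ± 0.59, and these 4 had an unadjusted p under 0.05, against 3.45% of all genes, which over 12670 genes gave an adjusted p of 0.999 (edgeR quasi-likelihood).

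All 10 genes were below 0 in luminal cells, from -2.33 to -1.09, with a median of -1.62 against -0.003 for all genes. With CPM scaled over the luminal libraries alone, as in the fit, the libraries of 8 did not overlap (all but *Fosb* and *Egr1*), against 10.6% of all genes. On the scale of the whole experiment, used for the CPM printed here, only *Egr1* overlapped. There *Fosb* was at 3308 CPM in the E2-treated BN library and 3444 CPM in ACI control replicate 2. None passed edgeR's quasi-likelihood test (0 called, 0 with DESeq2), where 0% of genes did. In simulated data of this design the test found 0% of randomly picked genes changed by a log2 of 2, so that the lack of calls does not show a lack of change. The simulation does not set a limit for these 10 genes. It also found 0% for basal against luminal cells of this experiment, where 221 genes passed in the data. The median was -1.27 without E2-treated ACI replicate 1 and -2.04 without replicate 2.

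**Figure D5:**
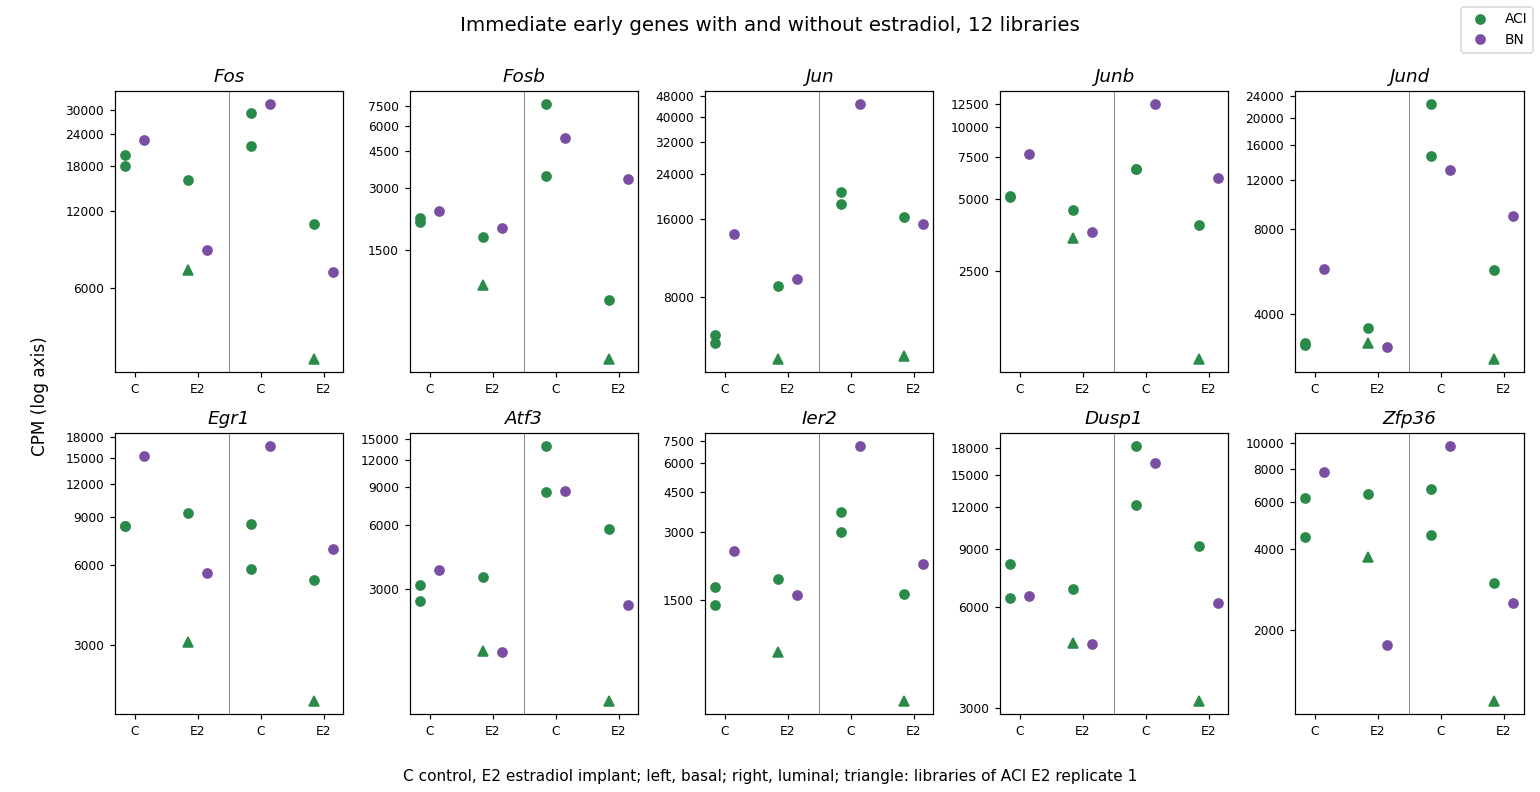
CPM (log axis) of the 10 genes in the 12 libraries of the E2 experiment, basal left of the line and luminal right (C, control). Green marks ACI, purple BN, and triangles stand for both libraries of E2-treated ACI replicate 1. In luminal cells every gene but *Egr1* shows every E2 library below every control, and the triangles are the lowest luminal points.

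Library by library, the E2-treated luminal cells of ACI replicate 1 had 0.0801 to 0.259 times the mean CPM of ACI controls over the 10 genes, those of ACI replicate 2 had 0.156 to 0.842 times, and those of the BN rats had 0.218 to 0.689 times the BN control. ACI replicate 1 also had the fewest counts in luminal cells (13659389) and 9184 genes detected. Of its reads 74.7% were not counted to a gene, and 35.2% aligned to more than 1 place. It held 6689 CPM of fibroblast markers against 234 CPM in replicate 2, and 14905 CPM of heat shock genes against 38229.9 CPM in replicate 2 and 20555 to 24924 CPM in ACI controls. Their part in the result was not tested.

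In basal cells *Fos* was at 19962 and 17976 CPM in ACI and 22858 CPM in BN controls and at 7043 and 15865.5 CPM in E2-treated ACI and 8415 CPM in E2-treated BN rats (-0.96 ± 0.59). All 10 genes had log2 values below 0, of which that of *Fos* was the largest in size and that of *Jun* (-0.004 ± 0.53) the smallest, with a median of -0.53 against -0.18 for all genes, and 0 passed (edgeR quasi-likelihood, 0 at an unadjusted p under 0.05, 0 with DESeq2) where 0% did. Without the E2-treated BN library the median was -0.28 and without the BN control -0.29, each with 2 genes above 0, and without E2-treated ACI replicate 1 it was -0.32 with 1 above 0. The libraries of 3 (*Fos*, *Fosb* and *Junb*) did not overlap, against 9.96% of all genes. In ACI replicate 2 the ratio to the ACI control mean was above 1 for 6 of the 10 genes, while the BN ratio was below 1 for all 10, from 0.226 to 0.831. The difference of the E2 effect, basal minus luminal, was above 0 for all 10 genes, from 0.33 ± 0.78 (*Egr1*) to 1.83 ± 0.84 (*Fosb*). None passed edgeR's test of the interaction (0 of 10 genes called, 0 at an unadjusted p under 0.05), and 0 genes of the genome were called, which does not show that the effects were alike.

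ACI and BN rats were compared with treatment as a term, from 4 ACI and 2 BN libraries per cell type. By edgeR's quasi-likelihood test 0 of 10 genes passed in basal (0 at an unadjusted p under 0.05, 0 with DESeq2) and 0 in luminal cells (0 and 0), where 0% of genes did in both. *Jun* had the BN libraries above all ACI libraries in basal cells, at 14049 and 9393 CPM in BN against 4587 to 8799 CPM in ACI (ACI over BN -0.94 ± 0.55), the only gene without overlap, against 8.46% of all genes. In luminal cells 9 of 10 log2 values were below 0, with a median of -0.72 against 0.08 for all genes.

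The 10 genes were then compared with each other, on log2 CPM centred on each group's mean, over 44 libraries in 20 groups. Pearson's r between 2 of them ran from -0.32 (*Fosb* and *Junb*) to 0.86 (*Fos* and *Atf3*), with a median of 0.45 over 45 pairs. *Atf3* (0.92), *Fos* (0.82) and *Zfp36* (0.81) were most like the mean of the other 9, and *Jund* (0.43) and *Fosb* (0.07) least. These values depend in part on the E2-treated ACI groups. Without them *Atf3* (0.785), *Zfp36* (0.731) and *Fos* (0.657) were still the highest, and *Jund* was at 0.537. *Egr1* went from 0.63 to 0.33, *Jun* from 0.50 to -0.07, and *Fosb* was at -0.21. In 11 of 28 pairs of libraries of 1 group, at least 8 of the 10 genes were higher in the same library, and in 3 pairs all 10 were: KO basal of 6 weeks, and basal and luminal cells of E2-treated ACI rats.

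Of the genes outside the 10, *Btg2* followed their mean most closely (r = 0.89), then *Sharpin* (0.84), *Edn2* (0.84), *Taz* (0.83), *Pnck* (0.83), *Srprb* (0.83), *Pik3ip1* (0.83), *Tsr3* (0.83), *Oxld1* (0.82) and *Coq6* (0.82). Much of this order came from the E2-treated ACI libraries. Without those groups (40 libraries, 18 groups) *Btg2* was still first among genes outside the 10, at 0.71, *Edn2* was at 0.64, and the other 8 lay between 0.44 and 0.60. The median r of the 40 further immediate early genes was 0.20 with those libraries and 0.18 without, against 0.15 and 0.04 for all genes. These values share library depth and composition and are given as a description.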

How the data were processed

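RNA was measured by single-end sequencing of low-input SMARTer libraries. The authors aligned reads to rn6 with STAR 2.5.1b and counted them per gene with HTSeq on the refGene annotation; the deposited values are raw counts, used as deposited. The 5 tally rows of reads in no gene were left out. Strand was not used in the library kit, so that overlapping genes cannot be told apart. Promoters came from RefSeq (GRCr8), of which no position was set beside rn6 data. The peak lists of the Pr ChIP-seq were not used here.

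Counts were fitted in R 4.3.3 with edgeR 4.0.16 (filterByExpr by group, TMM, quasi-likelihood F-test, Benjamini-Hochberg adjustment over all genes tested, threshold 0.05). All libraries of a set were fitted together, at 9 weeks with PNA+ and Cd49b+ as 1 LP group for genotype, ages in 1 fit of 36 libraries, and E2 and strain per cell type. CPM are TMM-scaled within a set, and overlap was judged on CPM scaled over the libraries of each fit. An SE is the absolute log2 fold change over the square root of F, and an interval is 95%. DESeq2 1.42.0 was an alternative, and so were RLE size factors, other filters (none, or 10 counts in each library), each library left out, replicate blocks and fits of only the libraries compared. Likeness was taken on log2 CPM (prior count 2). Figures were made in Python 3.11.15.

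The fits were tested on simulated data with 200 genes changed by a log2 of 2: 73.5% were found in the LP genotype design, 47.0% in those of basal and mature luminal cells at 9 weeks, 35.5% and 13.0% for 6 against 4 weeks in WT basal and luminal cells, and 0% in both genotype designs of 6 weeks and both E2 designs. No duplicate libraries were found in 28 pairs. At 9 weeks, libraries of 1 genotype and number deviated together (r from 0.238 to 0.771 in 12 distinct pairs of populations, number 2 mirroring number 1), so that these numbers served as pairs between populations; between cell types at other ages the shared title code was read as the same animal (r from -0.003 to 0.561 in 10 distinct pairs).

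The genes and lists were chosen with earlier results of these data known. Named were the 10 genes, *Cdkn1b*, up to 3 further immediate early genes per direction with an adjusted p under 0.05 and the largest change, and the 10 genes of highest likeness; not all of those 3 are printed. The KO age comparison, the crossed numbers, the fits without BN, without 9 weeks or without both ACI E2 replicate 1 libraries, and the likeness without the ACI E2 groups were added after seeing the data.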

Additional observations from a re-analysis of the deposited data

Results flagged for a closer look

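*Ier2* in KO LP of 9 weeks had 1 library far from the others: KO Cd49b+ replicate 1 stood at 604 CPM, while the other 3 KO LP libraries lay between 774 and 795 CPM. Its gap to the nearest library, over the range of the 4, was above Dixon's critical value. It was the only one of 20 values tested (10 genes in the WT and the KO LP group), and chance alone picks out about 1 in 20.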

How the results depend on the processing

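All 721 values of single genes under other settings kept their sign (those with an unadjusted p under 0.05 in the comparison as reported). The number of the 10 genes called moved as follows. With DESeq2 it was 2 in place of 1 for genotype in LP (1096 genes of the genome against 436), 1 in place of 0 for genotype in mature luminal cells (158 against 17 genes), for LP against mature luminal cells and for 9 against 4 weeks, 2 in place of 0 for genotype in basal (321 against 0 genes) and luminal cells of 6 weeks (1331 against 0 genes), and, between basal and luminal cells, 3 in place of 1 at 6 weeks and 2 in place of 0 in the E2 experiment. For genotype in LP it was 0 without the filter on low counts, with the PNA+ libraries alone, with the Cd49b+ libraries alone and with both summed (12, 4 and 5 genes of the genome in these last 3). With at least 10 counts in every library it was 2 at 6 weeks and 1 in the E2 experiment for basal against luminal cells.

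With the replicate block it was 3 for LP against mature luminal cells and 7 for LP against basal cells, as given above. For genotype in LP the block by number gave 2 (671 genes) and the crossed numbers, chosen after seeing the data, 2 (1284 genes); numbers did not pair WT with KO libraries (r from -0.275 to 0.005 in 4 distinct pairs). The fit of 4 and 6 weeks alone gave 3 for age in luminal cells, and the E2 experiment without both libraries of ACI E2 replicate 1 gave 1 for basal against luminal cells, both chosen after seeing the data.

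Leaving out 1 library gave 0 to 1 for genotype in LP, 3 to 5 for basal against mature luminal cells, 2 to 4 for LP against basal cells, 3 to 4, 1 to 2 and 0 to 2 for basal against luminal cells at 4 weeks, 6 weeks and in the E2 experiment, 0 to 2 for genotype in luminal cells of 6 weeks, 9 to 10 and 2 to 6 for age in basal and luminal cells, and 0 to 0 elsewhere. The cause of these differences was not tested. Groups of 2 or 3 libraries limit the precision, and where an arm was left with 1 library it was assumed to vary like the others.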
